A study of Mus musculus with 7 samples.

Results

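Expression of 6 genes of hepatic ketone body synthesis and of the switch from glucose to fat as fuel was examined across 7 mouse liver libraries. The genes are Acat1, Bdh1, Slc16a1, Pdk4, Ppargc1a and Creb3l3. They were taken by gene name from a table of 27810 genes, and all 6 were found, once each. All 7 libraries came from male wild-type C57BL/6j mice that began a Western-type diet (WD: 40% fat, 20% fructose, 2% cholesterol) at 5 weeks of age, a feeding model that the labels call WD-induced NASH, a fatty liver disease with inflammation. Every mouse received 1 tail-vein injection after 32 weeks of the diet, and liver was taken after 40 weeks. The MSC group (3 libraries, replicates 0, 1 and 2) received mesenchymal stromal cells of human umbilical cord (hUC-MSCs), and the vehicle group (3 libraries, replicates 1, 3 and 4) received PBS. A further vehicle library, replicate 6, is labelled Cancer and was treated as a group of its own (1 library); what the word means for that liver is not stated in the labels. All groups share the diet, so the libraries hold no liver on a normal diet, and the labels do not give the feeding state at collection. The labels do not state that each library is a separate animal, so p-values reflect only how these libraries vary, which may be technical.

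In fasting, the liver breaks down fatty acids to acetyl-CoA and turns part of it into ketone bodies, which leave the cell as fuel for brain, heart and muscle. Mitochondrial acetyl-CoA acetyltransferase (Acat1) joins acetyl-CoA units at the start of the pathway, and Bdh1 at its end reduces acetoacetate to β-hydroxybutyrate. Slc16a1 (MCT1) carries lactate, pyruvate and ketone bodies across the plasma membrane, and Pdk4 inhibits pyruvate dehydrogenase, which spares glucose. The coactivator Ppargc1a (PGC-1α) and the liver-enriched, membrane-bound transcription factor Creb3l3 (CREBH) act upstream, together with the nuclear receptor PPARα.

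Values are FPKM, fragment numbers corrected for transcript length and for the mapped total. The table holds no read counts, so depth is unknown. A level of 1 FPKM was reached by 9655 to 12041 genes, depending on the library. Mitochondrially encoded genes took 36.4% of the summed FPKM in MSC replicate 1 and 16.5% to 23.3% in the other 6 libraries. The hepatocyte markers were abundant in every library, with a summed level of 27528 to 43270 FPKM in the MSC, 25390 to 30337 in the vehicle and 32880 in the Cancer-labelled library. Markers of skeletal muscle and heart, tissues rich in several of the 6 genes, were at or near 0 in 5 libraries (sum 0.0042 to 0.118 FPKM) but summed to 8.41 FPKM in vehicle replicate 4 and 9.41 in the Cancer-labelled library, where Mb (myoglobin) measured 5.30 and 6.11 FPKM. The heart myosin gene Myh6 measured 2.06 and 2.35 FPKM in those libraries and at most 0.0047 in the others. Bile duct markers summed to 519 FPKM in the Cancer-labelled library, against 31.3 to 144.6 in MSC and 47.96 to 165.5 in vehicle libraries. In bulk tissue, fewer cells of a type and less RNA per cell cannot be told apart.

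Among the 6 genes, Acat1 and Creb3l3 were the most abundant and Ppargc1a the least in each library. Median levels over the 7 libraries were 91.7 FPKM for Acat1, 84.2 for Creb3l3, 39.2 for Pdk4, 25.9 for Bdh1, 10.5 for Slc16a1 and 1.83 for Ppargc1a. FPKM is scaled by length, so these levels can be set against each other. Acat1 lay above Creb3l3 in 4 of 7 libraries and Pdk4 above Bdh1 in 4 of 7, so neither pair had a fixed order. Creb3l3 lay above Pdk4 in 7 of 7 libraries, Bdh1 above Slc16a1 in 6 of 7 and Slc16a1 above Ppargc1a in 7 of 7. Creb3l3 varied least, with a ratio of 1.29 between its highest and lowest library, followed by Acat1 at 1.47. Slc16a1 spanned 2.99-fold, Bdh1 3.86-fold, Pdk4 4.19-fold and Ppargc1a 4.50-fold.

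**Figure D1:**
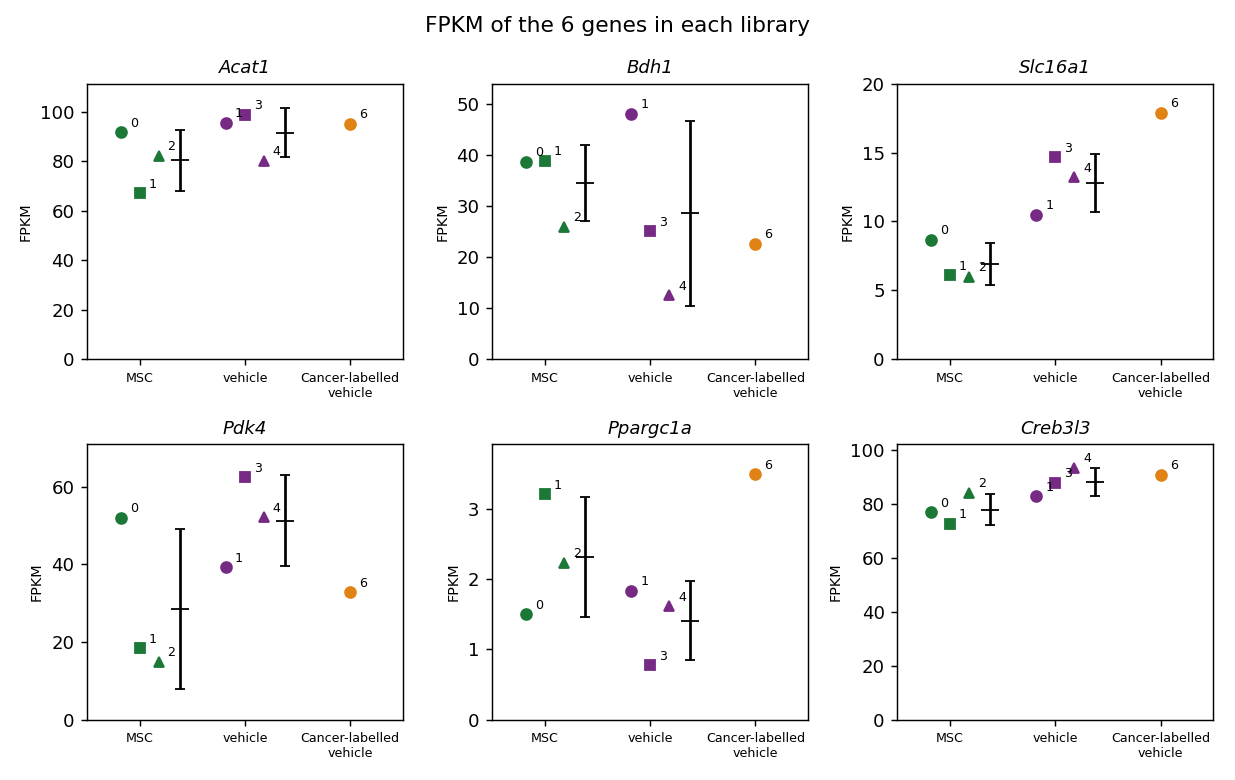
FPKM of Acat1, Bdh1, Slc16a1, Pdk4, Ppargc1a and Creb3l3 in each library (y axis), by group (x axis); points are libraries with their replicate number, and the black mark and bar are the mean and SD of 3 libraries. The Slc16a1 points of the MSC group (5.99 to 8.67) all lie below those of the vehicle group (10.5 to 14.7), whereas the groups overlap for the other 5 genes.

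The comparison of MSC with vehicle livers asked what differed after the cell injection. Slc16a1 was the only one of the 6 genes without overlap between the groups, and none of the 6 passed the test over all genes. Differences were tested with limma on log2(FPKM + 1), with Benjamini-Hochberg adjustment over the 10534 genes that reached 1 FPKM in at least 3 of the 6 libraries, and all 6 genes passed that filter. At adjusted p under 0.05, 0.00949% of the genes tested were called higher in MSC livers and 0.00949% lower, which is 1 gene each way: Gm20716, named only by its identifier, and Mup-ps18, a urinary protein pseudogene. At an unadjusted p under 0.05, limma gave 589 genes, 5.59% of those tested. Groups did not overlap with the MSC libraries lower for 7.84% of the genes tested and with the MSC libraries higher for 2.17%. Of the 6 genes, 2 (Slc16a1 and Pdk4, both lower) had an unadjusted p under 0.05, against 4.14% of all genes tested in that direction. Of the 6, 1 had no overlap with the MSC libraries lower and 0 with them higher, and 4 had a negative difference, against 60.1% of all genes tested. The median log2 difference was -0.18 over the 6 genes and -0.05 over all genes tested.

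Acat1 and Bdh1, the ketone synthesis enzymes among the 6 genes, did not separate the groups. Acat1 (ENSMUSG00000032047; chromosome 9, 53580522-53610382, minus strand, GRCm38) measured 91.7, 67.1 and 82.2 FPKM in MSC replicates 0, 1 and 2. It measured 95.5, 98.7 and 80.1 FPKM in vehicle replicates 1, 3 and 4, and 95.05 in the Cancer-labelled library. The groups overlapped, with MSC replicate 1 lowest of all. The means were 80.3 ± 12.4 FPKM in MSC and 91.4 ± 9.91 in vehicle livers (SD, n = 3 each). The log2 difference was -0.19 ± 0.21 (SE; 95% interval -0.66 to 0.28; limma adjusted p = 0.995).

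Bdh1 (ENSMUSG00000046598; chromosome 16, 31422280-31458901, plus strand), the dehydrogenase that ends the pathway, had its widest spread among the vehicle livers. It measured 48.1, 25.0 and 12.5 FPKM in vehicle replicates 1, 3 and 4, a 3.86-fold range that contained every other library. It measured 38.7, 38.8 and 25.9 FPKM in MSC replicates 0, 1 and 2, and 22.6 in the Cancer-labelled library. The means were 34.5 ± 7.41 FPKM in MSC and 28.5 ± 18.1 in vehicle livers (SD, n = 3 each). The log2 difference was 0.44 ± 0.42 (SE; 95% interval -0.53 to 1.40; limma adjusted p = 0.995), and without vehicle replicate 4, the lowest library and the one with heart transcripts, it was -0.034.

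Slc16a1 (ENSMUSG00000032902; chromosome 3, 104638668-104658462, plus strand), the monocarboxylate carrier, was lower in all 3 MSC libraries than in any of the 3 vehicle libraries. It measured 8.67, 6.11 and 5.99 FPKM in MSC replicates 0, 1 and 2. It measured 10.5, 14.7 and 13.2 FPKM in vehicle replicates 1, 3 and 4, and 17.9 in the Cancer-labelled library, the highest of the 7. The nearest libraries of the groups were MSC replicate 0 and vehicle replicate 1. The vehicle mean was 1.85 times the MSC mean, at 12.8 ± 2.13 against 6.92 ± 1.51 FPKM (SD, n = 3 each). The log2 difference was -0.80 ± 0.20 (SE; 95% interval -1.26 to -0.35), with an unadjusted p of 0.00322 and an adjusted p of 0.554 in limma. The difference did not pass in any alternative run, with limma adjusted p from 0.233 to 0.9999. Exact permutation (two-sided) gave p = 0.1, the smallest that 3 against 3 libraries allow. Red cell transcripts moved in the same direction: the 5 listed markers, none at 0, summed to 105 to 224 FPKM in MSC, 210.3 to 903 in vehicle and 563 in the Cancer-labelled library, with overlap between the groups, and their part in the Slc16a1 difference was not tested. Without vehicle replicate 4 the log2 difference of Slc16a1 was -0.78.

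Pdk4 (ENSMUSG00000019577; chromosome 6, 5483351-5496309, minus strand), the fasting-induced pyruvate dehydrogenase kinase, was low in 2 of the 3 MSC libraries. It measured 52.0, 18.5 and 14.9 FPKM in MSC replicates 0, 1 and 2. It measured 39.2, 62.4 and 52.1 FPKM in vehicle replicates 1, 3 and 4, and 32.9 in the Cancer-labelled library. MSC replicate 0 lay within the vehicle range, so the groups overlapped, while MSC replicates 1 and 2 lay below every other library. The means were 28.5 ± 20.5 FPKM in MSC and 51.2 ± 11.6 in vehicle livers (SD, n = 3 each). The log2 difference was -1.01 ± 0.42 (SE; 95% interval -1.98 to -0.05; limma unadjusted p = 0.0411 and adjusted p = 0.836). Without MSC replicate 0 it was -1.54, and without MSC replicate 0 and vehicle replicate 1 together it was -1.72 (limma adjusted p = 0.452 and 0.141).

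Ppargc1a (ENSMUSG00000029167; chromosome 5, 51454250-51567704, minus strand), the coactivator of mitochondrial and fasting genes, was near the floor of the filter. It measured 1.498, 3.21 and 2.23 FPKM in MSC replicates 0, 1 and 2. It measured 1.83, 0.776 and 1.62 FPKM in vehicle replicates 1, 3 and 4, and 3.49 in the Cancer-labelled library, the highest of the 7. MSC replicates 1 and 2 lay above every vehicle library and MSC replicate 0 within the vehicle range. The means were 2.31 ± 0.857 FPKM in MSC and 1.41 ± 0.559 in vehicle livers (SD, n = 3 each). The log2 difference was 0.46 ± 0.25 (SE; 95% interval -0.12 to 1.03; limma adjusted p = 0.995). MSC replicate 1, the highest of the 6, is also the library with the largest share of mitochondrially encoded transcripts; with those genes removed the difference was 0.49, and without that library it was 0.27.

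Creb3l3 (ENSMUSG00000035041; chromosome 10, 81084324-81098874, minus strand), the transcription factor, had the narrowest range of the 6 genes. It measured 77.0, 72.8 and 84.2 FPKM in MSC replicates 0, 1 and 2. It measured 82.9, 88.0 and 93.6 FPKM in vehicle replicates 1, 3 and 4, and 91.0 in the Cancer-labelled library. MSC replicate 2 lay above vehicle replicate 1, so the groups overlapped. The means were 77.99 ± 5.79 FPKM in MSC and 88.2 ± 5.31 in vehicle livers (SD, n = 3 each), with a log2 difference of -0.18 ± 0.18 (SE; 95% interval -0.59 to 0.24; limma adjusted p = 0.995). Exact permutation gave two-sided p of 0.3 for Acat1, 0.6 for Bdh1, 0.2 for Pdk4, 0.3 for Ppargc1a and 0.2 for Creb3l3.

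**Figure D2:**
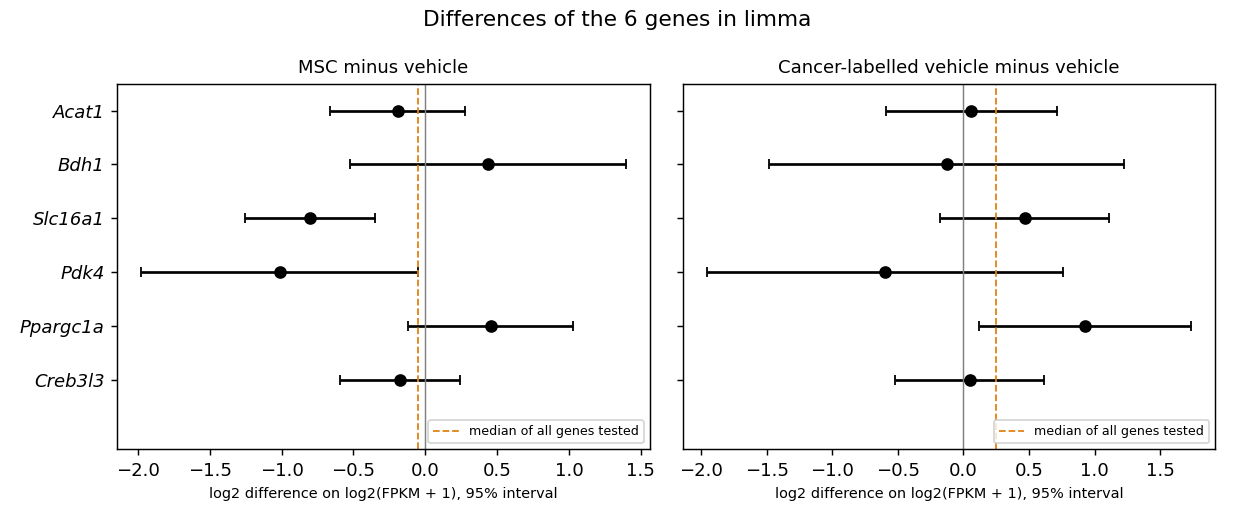
Log2 difference on log2(FPKM + 1) with its 95% interval from limma (x axis) for the 6 genes (y axis), for MSC minus vehicle and for the Cancer-labelled library minus vehicle; the dashed line is the median of all genes tested. In the left panel the intervals of Slc16a1 and Pdk4 lie below 0, and in the right panel that of Ppargc1a lies above 0; no adjusted p is under 0.05.

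The 250 bases before and 50 bases after the annotated start are shown for Pdk4, Slc16a1 and Ppargc1a. These 3 genes had the largest differences between MSC and vehicle libraries in size. The windows were searched for binding motifs of fasting regulators and for an E-box, whose factors are named below. Sequences are from RefSeq, build GRCm38.p6, on the strand of each gene, at chr3:104638414-104638713 for Slc16a1, chr6:5496229-5496528 for Pdk4 and chr5:51567676-51567975 for Ppargc1a. Capitals mark the motif matches that were found.
Slc16a1 promoter: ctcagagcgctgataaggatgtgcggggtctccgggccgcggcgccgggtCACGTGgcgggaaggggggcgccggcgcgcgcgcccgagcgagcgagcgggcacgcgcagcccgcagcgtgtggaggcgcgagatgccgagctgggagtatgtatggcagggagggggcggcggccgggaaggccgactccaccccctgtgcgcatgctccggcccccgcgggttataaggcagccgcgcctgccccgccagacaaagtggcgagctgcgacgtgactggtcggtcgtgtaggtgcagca
Pdk4 promoter: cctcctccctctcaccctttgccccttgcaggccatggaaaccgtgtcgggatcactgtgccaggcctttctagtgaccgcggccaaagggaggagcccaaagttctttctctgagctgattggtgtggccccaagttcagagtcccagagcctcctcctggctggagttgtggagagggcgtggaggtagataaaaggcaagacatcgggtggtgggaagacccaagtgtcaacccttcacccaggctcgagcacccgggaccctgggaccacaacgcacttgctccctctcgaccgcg
Ppargc1a promoter: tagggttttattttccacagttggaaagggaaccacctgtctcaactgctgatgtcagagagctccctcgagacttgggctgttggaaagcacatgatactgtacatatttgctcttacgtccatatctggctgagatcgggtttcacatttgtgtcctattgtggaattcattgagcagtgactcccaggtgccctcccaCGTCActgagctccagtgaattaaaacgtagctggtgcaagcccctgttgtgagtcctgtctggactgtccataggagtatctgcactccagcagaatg
The search covered both strands for 6 motifs: a PPAR direct repeat (AGGTCANAGGTCA), the full cAMP response element (TGACGTCA) and its half-site (TGACG), a FOXO site (GTAAACA), the E-box that MYC, USF and CLOCK family factors bind (CACGTG), and an ERR site (TCAAGGTCA). Any full cAMP response element also holds the half-site. The Slc16a1 window, of 73.7% G and C, holds 1 E-box, which starts 200 bases before the start site; 7.15% of 32851 RefSeq promoter windows of the same length hold one. The Ppargc1a window holds 1 half-site of the cAMP response element on the other strand (printed CGTCA), 49 bases before the start; 20.8% of windows hold one. None of the 6 motifs is in the Pdk4 window; full-length PPAR direct repeats of these letters are in 0.0396% of windows, full cAMP response elements in 1.79%, FOXO sites in 3.65% and ERR sites in 0.423%. RefSeq windows were found for 5 of the 6 genes (not Acat1). Of the Creb3l3 windows, 1 holds a half-site of the cAMP response element (TGACG), 239 bases before its start, and the other holds no match. The Bdh1 windows hold none of the 6 motifs.

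Within its family, each gene can be given as a percent of the summed FPKM, which does not move with the scaling of a library. Pdk4 shares its substrate, the pyruvate dehydrogenase complex, with Pdk1, Pdk2 and Pdk3. It held 65.6%, 33.8% and 36.9% of the kinase sum in MSC replicates 0, 1 and 2, and 51.6%, 68.6% and 71.6% in vehicle replicates 1, 3 and 4. In MSC replicates 1 and 2 Pdk2, the broadly expressed isoform, lay above Pdk4, at 29.5 and 17.0 FPKM. The mean share was 45.4% ± 17.5 in MSC and 63.9% ± 10.8 in vehicle livers (SD, n = 3 each; exact two-sided permutation p = 0.2), and 56.9% in the Cancer-labelled library.

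Ppargc1a held 40.9%, 59.4% and 56.8% of the sum of the PGC-1 coactivators (Ppargc1a, Ppargc1b and Pprc1) in MSC replicates 0, 1 and 2. It held 40.4%, 26.4% and 40.5% in vehicle replicates 1, 3 and 4, and 53.7% in the Cancer-labelled library. The groups did not overlap by this measure, unlike in FPKM, but MSC replicate 0 and vehicle replicate 4 lay next to each other. The mean share was 52.3% ± 10.01 in MSC and 35.8% ± 8.10 in vehicle livers (SD, n = 3 each). Exact two-sided permutation gave p = 0.1, the smallest possible, and 0.4 after Benjamini-Hochberg adjustment over the 6 shares. The other coactivators were as low: Ppargc1b measured 0.604 ± 0.191 against 0.576 ± 0.282 FPKM and Pprc1 1.42 ± 0.207 against 1.84 ± 0.0823 (SD, n = 3 each). Pprc1, which is part of the sum, was lower in every MSC library than in any vehicle library.

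Slc16a1 held 9.14%, 8.01% and 8.42% of the sum of the 14 Slc16 genes in MSC replicates 0, 1 and 2. It held 9.12%, 13.5% and 13.3% in vehicle replicates 1, 3 and 4, and 18.1% in the Cancer-labelled library. Vehicle replicate 1 lay within the MSC range by this measure, unlike its FPKM (exact two-sided permutation p = 0.2; means 8.52% ± 0.571 and 11.95% ± 2.46, SD, n = 3 each). Bdh1 held 94.6% to 98.8% of the sum with Bdh2, the cytosolic dehydrogenase, in the 7 libraries. Creb3l3 held 79.1% to 87.5% of the Creb3 family sum, the rest being mostly Creb3. Acat1 held 41.5% to 59.4% of the sum with the cytosolic thiolases Acat2 and Acat3, which are close copies whose reads may be shared, so that share is uncertain.

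**Figure D3:**
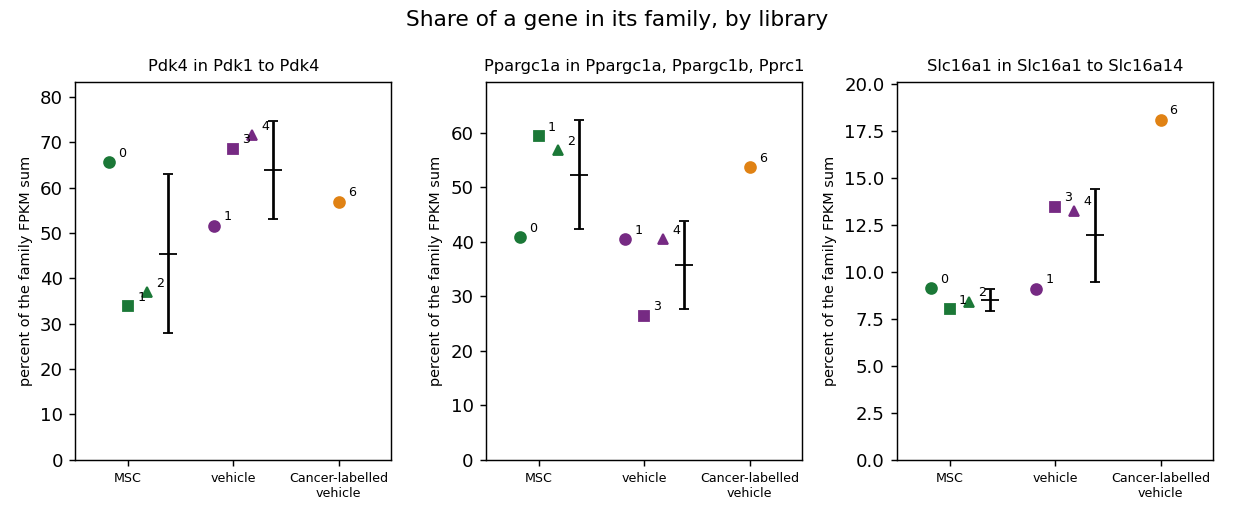
Percent of the family's summed FPKM (y axis) held by Pdk4, Ppargc1a and Slc16a1 in each library, by group (x axis); points are libraries with their replicate number, and bars are the mean and SD of 3 libraries. Pdk4 is at 33.8% and 36.9% in MSC replicates 1 and 2, and Ppargc1a is at 26.4% to 40.5% in the vehicle and 40.9% to 59.4% in the MSC libraries.

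The rest of the ketone pathway was measured from a list of 11 genes, 7 of them tested; Slc16a6 and Slc16a7 are also on the list of monocarboxylate carriers. Of those 7, 6 had a negative and 1 a positive difference between MSC and vehicle livers, and none passed. The median log2 difference was -0.24, against -0.05 over all genes tested. Of the 7, 1 had no overlap with the MSC libraries lower and 0 with them higher, against 7.84% and 2.17% of all genes tested. That gene is not reported here by name. Oxct1, the enzyme of ketone use that healthy hepatocytes lack, measured 1.89 ± 0.780 FPKM in MSC against 2.40 ± 0.680 in vehicle livers, and Slc16a7 (MCT2), a second carrier of ketone bodies, 9.04 ± 3.51 against 11.2 ± 4.10 (SD, n = 3 each). Slc16a6, reported as the hepatocyte ketone exporter in zebrafish, measured 2.18 ± 0.884 against 1.92 ± 0.226 FPKM (SD, n = 3 each). Of the 7 thiolases on a list without Acat1, 5 had a negative difference and none passed (median log2 difference -0.25). Acaa1b, a peroxisomal thiolase, measured 432 ± 170.3 against 763 ± 178.6 FPKM without overlap, and Hadhb, the β-subunit of the mitochondrial trifunctional protein, 22.9 ± 5.53 against 31.8 ± 3.50 (SD, n = 3 each; limma adjusted p = 0.822 and 0.890). Acaa1a measured 42.6 ± 5.29 against 53.2 ± 8.96 FPKM (SD, n = 3 each).

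The other monocarboxylate carriers were not uniform. Of 15 listed carriers and chaperones 9 were tested, 5 with a negative and 4 with a positive difference, and none passed; the median log2 difference was -0.04. Of the 9, 3 had no overlap with the MSC libraries lower and 0 with them higher, against 7.84% and 2.17% of all genes tested. Among the 6 listed genes below the filter, all under 2 FPKM, Slc16a9 also had no overlap with the MSC libraries lower, and Slc16a3 (0.189 to 0.345 FPKM in MSC, 0.0902 to 0.188 in vehicle libraries) and Slc16a14 (at most 0.0261 FPKM) had none with them higher. Slc16a5 measured 10.997 ± 1.34 against 24.5 ± 8.26 FPKM, with a log2 difference of -1.03 ± 0.26 (SE; limma adjusted p = 0.581). Slc16a10, an aromatic amino acid transporter, measured 7.10 ± 1.33 against 11.02 ± 1.70 FPKM, and Slc16a13 1.19 ± 0.367 against 2.40 ± 0.627 (SD, n = 3 each; limma adjusted p = 0.702 and 0.688). Slc16a12 measured 16.8 ± 3.54 FPKM in MSC and 17.4 ± 4.27 in vehicle livers (SD, n = 3 each).

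The pyruvate dehydrogenase complex itself, on which Pdk4 acts, had 12 of 14 listed genes tested, 9 with a negative and 3 with a positive difference, none past the threshold and none without overlap (median log2 difference -0.19). Pdha1, the catalytic subunit that the kinases phosphorylate, measured 34.1 ± 3.14 against 41.2 ± 9.39 FPKM, Pdhb 20.1 ± 0.212 against 23.3 ± 4.28, and Pdpr, a regulator of the opposing phosphatase, 2.49 ± 1.30 against 3.595 ± 1.27 (SD, n = 3 each). Among the other kinases, Pdk1 measured 7.23 ± 0.824 against 8.79 ± 3.15 FPKM and Pdk2 22.1 ± 6.51 against 19.5 ± 4.80 (SD, n = 3 each).

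The list of PGC-1 family genes and partners had 10 of 10 tested genes with a negative difference, against 60.1% of all genes tested. None passed (median log2 difference -0.18, against -0.05 over all genes tested). The family coactivator Pprc1 is 1 of the 10. Ppargc1a itself had a positive difference, also without passing. Hnf4a, the hepatocyte nuclear receptor that it coactivates, measured 101.9, 76.9 and 109.1 FPKM in MSC replicates 0, 1 and 2 and 121 to 123 in the vehicle libraries, without overlap (log2 difference -0.36 ± 0.21, SE; limma adjusted p = 0.995). Sirt3, the mitochondrial deacetylase, measured 7.94 ± 0.464 against 9.36 ± 1.44 FPKM (SD, n = 3 each). For the Creb3 family, its activating proteases and known targets of Creb3l3, 9 of 12 tested genes had a negative difference and none passed (median log2 difference -0.23). Insig2, a brake on lipogenesis, measured 56.2 ± 11.8 against 87.8 ± 34.4 FPKM without overlap, Apoa5, a lipase cofactor, 242.6 ± 13.8 against 329.9 ± 70.1 and Cidec, a lipid droplet protein, 34.2 ± 19.9 against 74.7 ± 49.9 (SD, n = 3 each). The list's median was -0.40 without MSC replicate 0 and -0.03 without MSC replicate 2.

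Fasting, glucagon and glucocorticoid responsive genes did not share a direction: 7 of 18 were lower and 11 higher in mean, none passed, and the median log2 difference was 0.12. G6pc and Pck1, both enzymes of glucose production, had opposite signs without overlap. G6pc measured 81.2, 89.7 and 97.3 FPKM in MSC replicates 0, 1 and 2 and 150.4, 117.7 and 146.3 in vehicle replicates 1, 3 and 4 (log2 difference -0.62 ± 0.20, SE; limma adjusted p = 0.701). Pck1, named here after its values were seen, measured 884, 722 and 714 FPKM against 605, 385 and 564 (log2 difference 0.60 ± 0.29, SE; limma adjusted p = 0.950). Ddit4, an inhibitor of mTORC1 induced by glucocorticoids and stress, measured 8.11, 8.08 and 11.0 FPKM against 6.74, 4.08 and 3.04 (log2 difference 0.88 ± 0.25, SE; limma adjusted p = 0.626). Fkbp5, another glucocorticoid target, measured 8.67 ± 3.52 against 12.8 ± 0.871 FPKM (SD, n = 3 each).

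**Figure D4:**
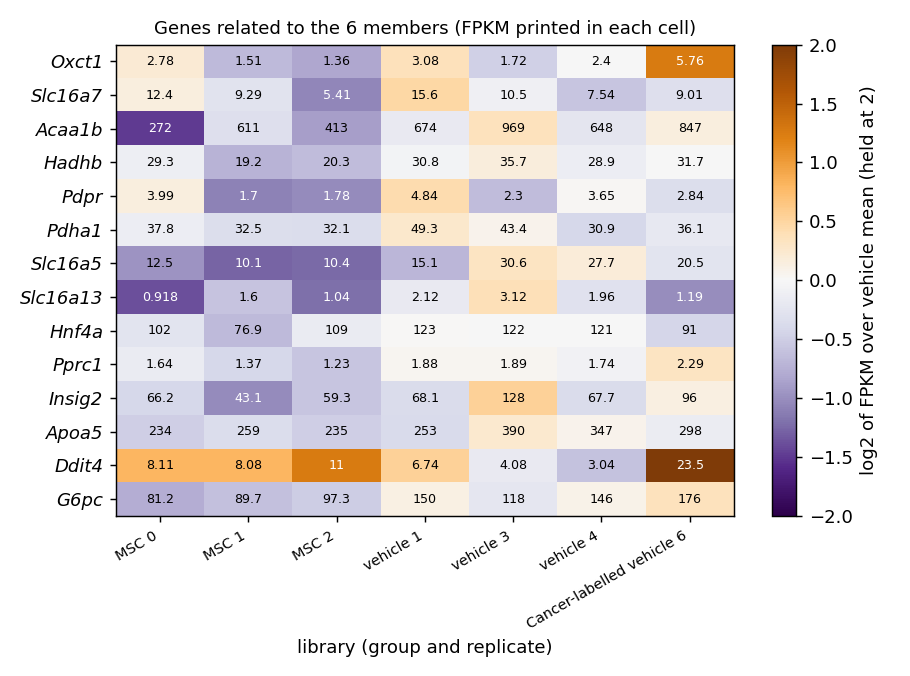
FPKM (printed in each cell) of 14 genes, up to 2 of lowest p among those reported from each of 7 lists (rows), in the 7 libraries (columns); colour is log2 of FPKM over the vehicle mean. The MSC values of Slc16a5, Slc16a13 and G6pc all lie below their vehicle values, and Ddit4 is highest in the Cancer-labelled library at 23.5 FPKM.

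The Cancer-labelled library was set against the 3 vehicle livers by fitting all 7 libraries in limma as 3 groups. Its spread was therefore taken from the other libraries, and the difference has no replicate check. Over the 12265 genes tested its log2 difference had a median of 0.25, and 3.98% were called higher and 0.188% lower at adjusted p under 0.05. It lay above every vehicle library for 56.2% of the genes tested and below each of them for 10.6%. The filter also admitted genes that reached 1 FPKM in the Cancer-labelled library alone, with no matching rule for genes low in it. The median and the shares of genes higher are therefore raised by the filter, to an extent that was not measured. All 6 genes were tested and none passed; 1 of 6, Ppargc1a, had an unadjusted limma p under 0.05 and was higher, against 15.4% of all genes tested. Ppargc1a and Slc16a1 lay above every vehicle library and Pdk4 below, while Acat1, Bdh1 and Creb3l3 lay within the vehicle range.

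Ppargc1a was 2.48 times the vehicle mean in the Cancer-labelled library, with a log2 difference of 0.93 ± 0.36 (SE; 95% interval 0.12 to 1.74; limma adjusted p = 0.227), and with libraries centred on their medians it was 0.62. Slc16a1 was 1.40 times the vehicle mean, with a log2 difference of 0.47 ± 0.28 (SE; 95% interval -0.18 to 1.11; limma adjusted p = 0.445), and 0.16 after centring. Pdk4 was at 32.9 FPKM against a vehicle mean of 51.2, with a log2 difference of -0.60 ± 0.59 (SE; 95% interval -1.96 to 0.76; limma adjusted p = 0.643), and -0.91 after centring. Acat1, Bdh1 and Creb3l3 had log2 differences of 0.06, -0.13 and 0.05, all below the median of all genes tested, which the filter raised. After centring these were -0.25, -0.44 and -0.26. The centring used medians of the same filtered genes, so the filter also affects the centred values of all 6 genes. Beside these values, this library lay above every vehicle library for all 6 bile duct markers (median log2 difference 2.65). Krt19, Krt7, Cldn7 and Sox9 met the filter only with this library's own value, so the filter in part set that median. Epcam and Spp1 met it without that value, at 21.6 and 453 FPKM against vehicle means of 2.45 and 89.2. Mb and Myh6, the tested markers of muscle and heart, also entered through this library and were above every vehicle library. The part of all these markers in the 6 genes' values was not tested.

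Of the related genes, Ddit4 and Sik1, a kinase induced by cAMP signalling, were the 2 of the 18 fasting-responsive genes called higher in the Cancer-labelled library. Ddit4 measured 23.5 FPKM against a vehicle mean of 4.62 (log2 difference 2.18; limma adjusted p = 0.0149), and Sik1 35.03 FPKM against 5.81 to 7.10 in the vehicle libraries (limma adjusted p = 0.011). The 2 calls among 18 stand beside 3.98% of all genes tested called higher. Oxct1 was at 5.76 FPKM against a vehicle mean of 2.40 (limma adjusted p = 0.163), and Pdk1 at 3.82 against 8.79 (limma adjusted p = 0.204). Pdk3 was at 1.37 FPKM against 0.31 to 0.49 in the vehicle libraries. It met the filter only through the Cancer-labelled library, so its test was not independent of that high value. In none of the other 6 lists did a gene pass.

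The genes whose profiles over the 7 libraries were most like each member were found by Pearson correlation of log2(FPKM + 1) among 7367 genes with a mean of at least 2 FPKM, as a description. With 7 libraries that share the group differences and the library composition, high values are common: 137 genes reached r of 0.9 with Slc16a1, 47 with Acat1, 35 with Creb3l3, 34 with Bdh1, 19 with Pdk4 and 4 with Ppargc1a. Closest to Slc16a1 were Bysl, a ribosome assembly factor (r = 0.984), the circadian activator Clock (r = 0.982) and the chaperone Hspa8 (r = 0.981). Closest to Bdh1 were Timmdc1, an assembly factor of respiratory complex I (r = 0.984), the toll-like receptor adaptor Ticam1 (r = 0.981) and Txnip, a thioredoxin-binding protein (r = 0.978). Closest to Pdk4 were Zfp655 (r = 0.957), Edem3, of endoplasmic reticulum glycoprotein turnover (r = 0.952), and the elongation factor Ell (r = 0.948). Closest to Acat1 were Cdc123 (r = 0.985), Septin2 (r = 0.975) and the glycolytic kinase Pgk1 (r = 0.973). Closest to Creb3l3 were Nrg4, a secreted growth factor (r = 0.979), the importin Kpna2 (r = 0.967) and Aadat, an aminotransferase (r = 0.964). Closest to Ppargc1a were Scand1, Sertad1 and Prpf40b, at r of 0.921, 0.917 and 0.911.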

How the data were processed

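RNA of 7 mouse liver samples was sequenced, 1 library each. The authors deposited 1 table of FPKM per gene and library, per the file headers. The submitters' processing notes list StringTie 2.1.6, HISAT2 2.2.1, FastQC 0.11.9 and cutadapt 1.9, without role or order, and mm10 and GRCm38 as builds. Strand handling is not stated in the sources used here. Depth is unknown, so no counting interval is given. FPKM is a share of a library, so a few abundant transcripts lower all other values. Coordinates are those of the table; in GENCODE M21 (GRCm38) 5 of the 6 genes have the same span. Genes that overlap them in the table reached at most 0.10 FPKM.

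Groups followed the labels. Values were analysed as log2(FPKM + 1), which understates changes of low genes such as Ppargc1a. The tests were limma (lmFit, eBayes with trend; threshold of adjusted p under 0.05 over all genes tested) and exact two-sided permutation. Genes needed 1 FPKM in 3 libraries or, for the Cancer-labelled comparison, in that library. The limma code was tested on simulated data. The members, lists and tests were chosen with earlier results of these data known. Named are the 6 members, their family relatives where shares are given, up to 3 genes of lowest p from each list, and the 3 genes most like each member, leaving out identifiers and pseudogenes; some listed genes are counted in their lists but not reported here by name. Alternatives covered the filter, pseudocount, scaling and limma settings, pooling of all vehicle libraries and the loss of each replicate. Fits without mitochondrially encoded genes, and without MSC replicate 0 and vehicle replicate 1 together, were added after seeing the data. Software was R 4.3.3 with limma 3.58.1 and jsonlite 2.0.0, and Python 3.11.15 with pandas 2.3.3 and matplotlib 3.10.9.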

Additional observations from a re-analysis of the deposited data

How the results depend on the processing

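None of the 6 genes passed in either comparison under any alternative run. For MSC minus vehicle, 112 of 113 alternative values of the 6 genes kept the sign; the exception was Bdh1, at -0.034 without vehicle replicate 4 (range over replicates left out -0.034 to 0.90). The share of Bdh1 in its family turned to -0.18 percentage points without that library (range over replicates left out -0.18 to 1.95); the other 41 alternative shares kept the sign. For the Cancer-labelled library 95 of 101 values kept the sign. The exceptions were Acat1 and Creb3l3 with median centring (-0.25 and -0.26), Acat1 without vehicle replicate 4 (-0.0299; range over replicates left out -0.0299 to 0.12), and Bdh1 without vehicle replicate 1, alone or with MSC replicate 0 (0.33 each; range -0.60 to 0.33), or with mitochondrially encoded genes removed (0.0033). The count of all genes past the threshold for MSC minus vehicle, 2 in limma, was 1 with all 4 vehicle libraries pooled, 1 to 8 when a replicate was left out, and 1 without MSC replicate 0 and vehicle replicate 1. For the Cancer-labelled library that count, 511, was 13 at a pseudocount of 0.1, 838 at 5, 1035 without the filter, 80 with a filter at 5 FPKM, 267 to 631 with a replicate left out and 1032 without MSC replicate 0 and vehicle replicate 1; the cause was not tested. Ppargc1a, below the filter at 5 FPKM, has no value there. No paired analysis was possible because the groups share only replicate number 1. With 3 libraries a group and unknown depth, a difference that missed the threshold is not shown to be absent.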

Other observations

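For 4 further genes, from the lists of fasting-responsive genes, PGC-1 partners and Creb3l3 targets, the MSC and vehicle libraries overlapped. The 4 genes were picked after their values were seen. Others of those lists, such as Hnf4a, Insig2, G6pc and Pck1, had no overlap. Fgf21, a fasting hormone of the liver, measured 11.8, 3.91 and 1.67 FPKM in MSC replicates 0, 1 and 2 and 3.18, 21.7 and 4.54 in vehicle replicates 1, 3 and 4, so the groups overlapped. Igfbp1, an insulin-suppressed secreted protein, was highest in MSC replicate 0 at 401 FPKM, against 65.6 and 132.7 in the other MSC libraries and 48.5 to 126.1 in the vehicle libraries. Ppara, the nuclear receptor of the fasting response, measured 30.4, 15.1 and 19.3 FPKM in MSC and 45.5, 15.9 and 25.6 in vehicle libraries, with 13.0 in the Cancer-labelled library, the lowest of the 7. Apoa4, a target of Creb3l3, ranged from 328 to 1562 FPKM in MSC and from 526 to 1171 in vehicle libraries, while Creb3l3 itself spanned 1.29-fold over all 7.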
